A study of Homo sapiens with 6 samples.

Results

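Heat shock chaperones bind proteins that are unfolded or partly folded and release them in cycles driven by ATP, and their cochaperones set the pace of those cycles or choose the clients. In the HSP70 cycle, J-domain proteins deliver a client and trigger ATP hydrolysis, while nucleotide exchange factors, among them the HSP110 proteins, the BAG proteins and HSPBP1, open the lid again. HSP90 takes over many of the same clients, and the ring-shaped chaperonin TRiC, built of TCP1 and the CCT subunits, folds actin, tubulin and other newly made proteins. Heat shock factor 1 (HSF1) drives transcription of many of these genes through heat shock elements, inverted repeats of GAA in their promoters.

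The genes described here are the cytosolic heat shock chaperones and cochaperones, chosen by symbol: every gene of the deposited table whose name begins with HSP or DNAJ, or that is TCP1, one of CCT2 to CCT8 or one of BAG1 to BAG6, leaving out HSPA5, HSP90B1 and DNAJB9. The symbols matched 47 genes, and 44 of the 7682 genes in the table remained after those 3 were left out. They comprise 8 HSP70 and HSP110 genes, 1 HSP90 gene, 5 TRiC subunits, 1 small heat shock protein, 23 J-domain proteins, 5 BAG proteins and HSPBP1. The name cytosolic is not exact for all of them, because DNAJB12, DNAJB14, DNAJC1, DNAJC3 and DNAJC10 are proteins of the endoplasmic reticulum (ER) and DNAJA3 and DNAJC30 are mitochondrial. DNAJC25-GNG10 is a readthrough transcript of neighbouring genes. HSP90AA1, CCT3, CCT4, CCT7, BAG6, DNAJC7 and the mitochondrial HSPA9, HSPD1 and HSPE1 were not analysed here.

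The cells were HEK293, a human embryonic kidney line, transfected either with MOV10 siRNA or mock. MOV10 is an RNA helicase that binds mRNA 3′ untranslated regions (UTRs), and the study asked how mRNA half-lives change when it is depleted. All cultures received 700 µM 4-thiouridine (4sU), a uridine analogue that is built into new RNA, for 60 min. RNA was then split into total RNA, labelled RNA held by streptavidin beads after biotinylation of the 4sU, and unlabelled flow-through RNA, and poly(A)+ libraries were sequenced from each. The table gave 2 replicate columns of a normalised signal for each fraction and condition and 2 columns of the authors' half-lives for each condition. No unit was given for the half-lives, and they are taken here as minutes. The labels do not say what mock-transfected cells received, name no siRNA sequence, and do not say whether the replicates were separate cultures, so the p-values below measure only the spread between columns.

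MOV10 itself had a total RNA signal of 3.53 and 3.64 in the siRNA columns, against 13.1 and 14.6 in the mock columns, a ratio of means 3.86-fold lower with siRNA. Sequencing depth is unknown, since no counts were given. Of the usual HEK293 genes NEFL, INA, LIN28B, CKB, NEFM and PAX2, the first 4 were in the table, and of 7 markers of other cell types only HBA1 was. Genes with a mean total RNA signal of at least 5 in both conditions were tested, 6064 in all, among them 39 of the 44 chaperone genes. The other 5, DNAJC4, DNAJC13, DNAJC22, DNAJB5 and HSPA12A, had total RNA signals between 1.11 and 4.92 and received no test. All changes given below are log2 differences, siRNA minus mock, relative to the median gene of each column. Without that centring the median gene lay 0.20 higher with siRNA in half-life and 0.14 higher in labelled RNA.

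In mock cells the chaperone mRNAs spanned a wide range of stability. The authors' half-lives of the 39 tested genes had medians of 680 and 786 min in the 2 mock columns, against medians of 742 and 810 min over all 6064 genes. In siRNA cells the chaperone medians were 685 and 990 min, beside 764 and 1030 min over all genes, so that the second siRNA column had the higher median in both. By the mean of the mock columns, 13 of the 39 lay under the first quartile of all genes and 5 above the third quartile. The lowest 5% of all genes contained 3 of them.

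These 3 shortest-lived mRNAs belong to the stress-inducible arm of the HSP70 system. HSPA1A, which encodes the inducible HSP70, had authors' half-lives of 39.9 and 68.9 min with siRNA, against 64.5 and 63.4 min in mock cells. DNAJB1, the inducible J-domain partner usually called HSP40, had authors' half-lives of 66.2 and 89.6 min with siRNA, against 67.1 and 74.7 min in mock cells. HSPA1B, the near-identical second copy of inducible HSP70, had authors' half-lives of 48.1 and 81.2 min with siRNA, against 73.6 and 76.5 min in mock cells. In mock cells DNAJB1 lay between its neighbours HSPA1A and HSPA1B, and the columns of DNAJB1 and HSPA1B overlapped.

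HSPA8, the constitutive HSP70, came next in the mock order at 145 and 176 min, followed by BAG3, BAG5, DNAJC14 and BAG4, of which BAG3 stood at 174 and 178 min. At the other end were DNAJC10, an ER disulfide reductase, with authors' half-lives of 2040 and 2243 min with siRNA and 1797 and 1755 min in mock cells, then DNAJC25-GNG10 with 1679 and 2059 min with siRNA and 1381 and 1394 min in mock cells. HSPBP1 followed with 1006 and 1442 min with siRNA and 1285 and 1394 min in mock cells. The values of DNAJC25-GNG10 cannot be assigned to a J-domain mRNA, since 75.3% of its exon bases are shared with GNG10. The 5 TRiC subunits lay close together in mock cells, between 974 min for CCT5 and 1378 min for TCP1.

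**Figure D1:**
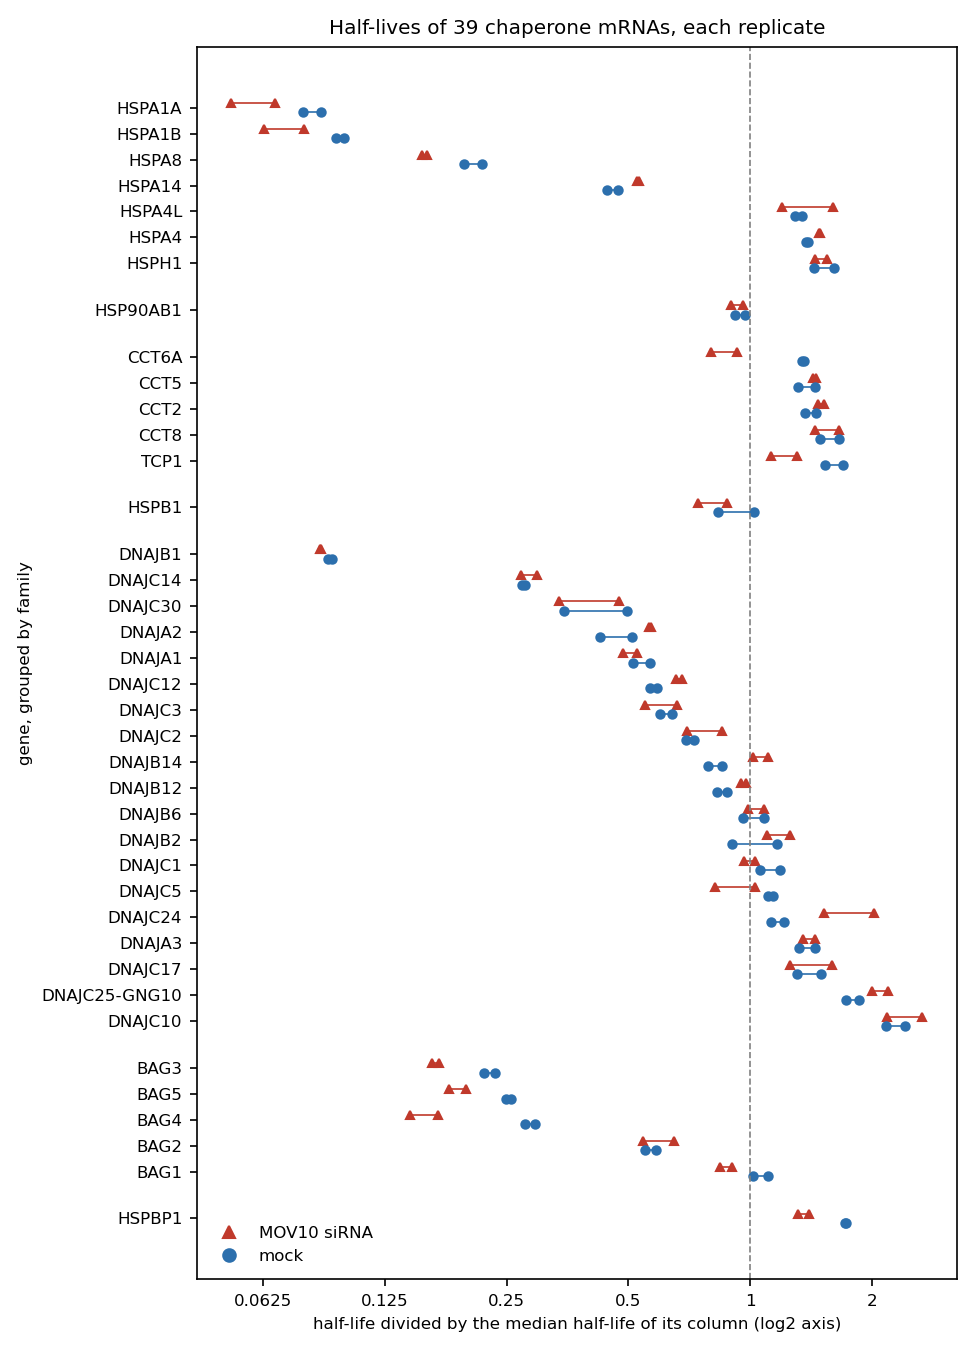
Half-life of each of the 39 tested chaperone genes divided by the median half-life of its column, on a log2 axis, with red triangles for the 2 MOV10 siRNA columns and blue circles for the 2 mock columns; genes are grouped by family. HSPA1A, HSPA1B, DNAJB1, HSPA8, BAG3, BAG4 and BAG5 lie far left of the median gene, and the siRNA triangles of BAG4 and CCT6A lie left of their mock circles.

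After MOV10 depletion, the half-lives of 3 chaperone mRNAs fell and none rose by limma with Benjamini-Hochberg adjustment at 0.05. The 3 were BAG4, CCT6A and BAG3. Over all genes tested, 6.15% were called for half-life, 4.27% lower and 1.88% higher, and the 3 of 39 are close to that share. The median change of the 39 was -0.02, beside 0.00 over all genes. At an unadjusted p under 0.05 the number was 15 of 39 (38.5%), beside 24.3% of all genes. Without the first mock column none of the 3 was called, and without the second only BAG4 was. Over all genes the 114 rises and 259 falls became 1 and 48 without the first mock column, 4 and 95 without the second, and 20 and 138 without the first siRNA column, and without the second siRNA column the rises numbered 75. In bulk RNA of a culture, a change in some cells and a smaller change in all of them cannot be told apart.

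Total RNA rose for 3 of the 39 genes (DNAJC24, DNAJB14 and DNAJA2) and fell for 7 (HSPB1, BAG4, CCT6A, TCP1, BAG5, HSPA1B and HSPA8), where 27.2% of all genes were called, 12.9% higher and 14.3% lower. Labelled RNA rose for 9 (HSPA8, DNAJC12, DNAJC2, HSP90AB1, BAG1, DNAJA1, DNAJC17, DNAJA3 and DNAJC3) and fell for 4 (HSPB1, BAG4, DNAJC30 and BAG5), where 21.4% of all genes were called, 9.88% higher and 11.5% lower. Without centring on the median gene the labelled calls were 15 higher and 3 lower. Without the second mock column 2 genes, DNAJC12 and DNAJC2, were called higher in labelled RNA, and total RNA calls numbered 6 in all without that column and 5 without the first siRNA column. Flow-through RNA rose for 16 and fell for 10, where 58.6% of all genes were called, 31.7% higher and 26.8% lower. The median changes of the 39 genes were -0.03 for total RNA, 0.10 for labelled RNA and 0.04 for flow-through RNA, beside 0.01, 0.00 and 0.03 over all genes.

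The fractions did not move as one. Of the 9 genes whose labelled RNA rose, none passed the test as higher in total RNA and 1, HSPA8, passed as lower, while 8 of the 9 rose in flow-through RNA. Labelled and flow-through RNA are the parts of total RNA, so for these 8 genes both parts were called and the whole was not. HSP90AB1 changed by 0.41 and 0.35 in the parts and -0.06 in total, and DNAJA1 by 0.35, 0.20 and -0.16. DNAJC17 and BAG1 also lay below 0 in total, at -0.16 and -0.08. The total changes of DNAJA3, DNAJC2, DNAJC12 and DNAJC3 lay above 0, at 0.16, 0.12, 0.10 and 0.08, each smaller than in either part. Each fraction was normalised and centred separately, and the cause of the mismatch was not tested. Of the 7 genes whose total RNA fell, 6 also fell in flow-through RNA, and BAG4, BAG5 and HSPB1 fell in all 3 fractions. BAG2, CCT8, DNAJB1, DNAJB6, DNAJB12, DNAJC1, DNAJC5, DNAJC10, DNAJC14, DNAJC25-GNG10 and HSPA14 passed no test in any measure, which leaves 28 of the 39 (71.8%) called at least once, beside 67.1% of all genes. The half-lives were computed by the authors from these same fractions, so the measures are not independent of each other.

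**Figure D2:**
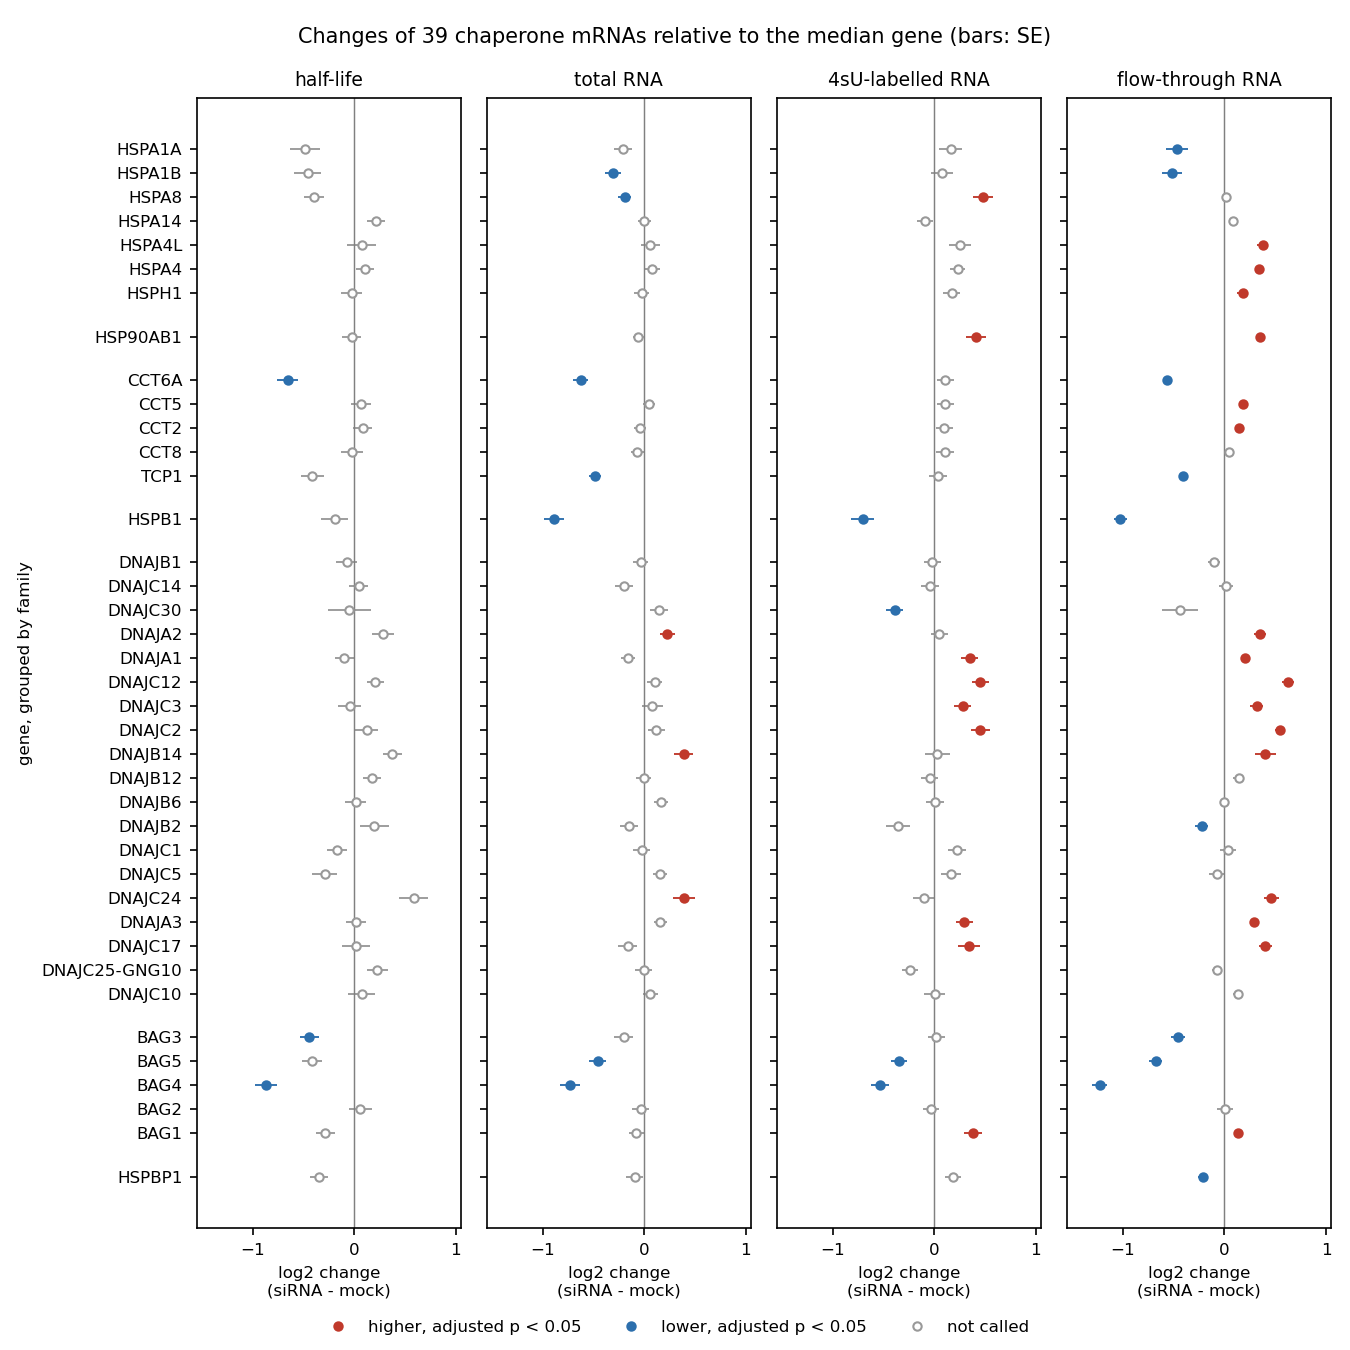
Log2 change, siRNA minus mock, of the 39 tested chaperone genes in half-life and in total, 4sU-labelled and flow-through RNA, relative to the median gene, with bars for the standard error (2 columns each); filled red and blue points passed limma with Benjamini-Hochberg adjustment as higher and lower, and open points did not pass. CCT6A and TCP1 lie apart from CCT2, CCT5 and CCT8 in total RNA, and HSPB1, BAG4 and BAG5 are blue in all 3 fractions.

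In the HSP70 system, the constitutive HSPA8 had more labelled RNA and slightly less total RNA after MOV10 depletion. Labelled HSPA8 signal was 428 and 418 with siRNA, against 298 and 254 in mock cells, and total signal was 99.0 and 98.8 with siRNA, against 113 and 117 in mock cells. Neither pair overlapped. The labelled change was 0.48 (SE 0.10, limma adjusted p = 0.00569) and the total change -0.19 (SE 0.06, limma adjusted p = 0.0299), whereas flow-through RNA, at 131 and 128 with siRNA and 128 and 131 in mock cells, differed by 0.01 (limma adjusted p = 0.811). Its half-life change of -0.40 missed the threshold (limma adjusted p = 0.0681). The annotation used here names 17 pseudogenes of HSPA8 and 6 of DNAJA1, with which reads can be shared, so the values of both are uncertain. Of the other tested members, HSPB1, TCP1 and CCT5 have 2 each and DNAJB1 and CCT8 have 1 each. Only names made of the full symbol, P and any digits were counted, so pseudogenes of any member under other names were missed. Without the second mock column the labelled call of HSPA8 was lost at a change of 0.41 (limma adjusted p = 0.073), and the total call was lost without either siRNA column (limma adjusted p = 0.292 and 0.214).

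The inducible copies HSPA1A and HSPA1B fell in flow-through RNA. HSPA1A had flow-through signals of 8.99 and 11.7 with siRNA, against 14.5 and 15.0 in mock cells, a change of -0.47 (SE 0.11, limma adjusted p = 0.0134). HSPA1B had flow-through signals of 22.9 and 28.5 with siRNA, against 36.6 and 38.4 in mock cells, a change of -0.52 (SE 0.10, limma adjusted p = 0.00563). The conditions did not overlap for either gene. Total RNA of HSPA1B was 32.4 and 33.1 with siRNA and 37.4 and 45.8 in mock cells, a change of -0.31 (limma adjusted p = 0.0107) that was not called without the first siRNA column (0.0861) or the second mock column (0.0702). Total RNA of HSPA1A, at 13.4 and 14.3 with siRNA and 14.7 and 18.4 in mock cells, changed by -0.21 and did not pass (limma adjusted p = 0.0991). Relative to the median gene their labelled RNA overlapped between conditions, at signals of 113 and 89.7 with siRNA and 78.5 and 85.5 in mock cells for HSPA1A, and 229 and 188 with siRNA and 176 and 182 in mock cells for HSPA1B. Of the 2384 windows of 100 bases in the HSPA1A transcript, 1666 (69.9%) occur unchanged in HSPA1B, so the signals of the 2 genes cannot be fully told apart. Their half-life changes, -0.48 for HSPA1A and -0.46 for HSPA1B, did not pass (limma adjusted p = 0.107 and 0.0985). The flow-through call of HSPA1A was lost without the second mock column (limma adjusted p = 0.0556).

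HSPA4, HSPA4L and HSPH1, the HSP110 proteins that act as nucleotide exchange factors of HSP70, rose in flow-through RNA. HSPA4 had flow-through signals of 125 and 124 with siRNA, against 102 and 96.7 in mock cells, a change of 0.34 (SE 0.04, limma adjusted p = 0.000927). HSPA4L changed by 0.37 (limma adjusted p = 0.00281). HSPH1 was at 36.1 and 35.5 with siRNA and 33.3 and 30.6 in mock cells, a change of 0.18 (limma adjusted p = 0.03) that was lost without either siRNA column (0.0977 and 0.0517) or the second mock column (0.169). Total RNA of all 3 overlapped between conditions relative to the median gene. Total HSPA4 signal was 80.1 and 74.4 with siRNA and 77.8 and 70.4 in mock cells, and total HSPH1 signal was 22.6 and 21.5 with siRNA and 22.9 and 22.7 in mock cells. HSPA14, which works with DNAJC2 on the ribosome, passed no test.

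HSP90AB1, the constitutive cytosolic HSP90, rose in labelled and flow-through RNA with no call in total RNA or half-life. The rises of both parts were thus not seen in the whole, and why was not tested. Labelled signal was 447 and 415 with siRNA, against 315 and 276 in mock cells, a change of 0.41 (SE 0.10, limma adjusted p = 0.0122). Flow-through signal was 866 and 863 with siRNA, against 691 and 680 in mock cells, a change of 0.35 (SE 0.03, limma adjusted p = 0.000289). The conditions lay apart in both fractions. Total signal, at 445 and 422 with siRNA and 456 and 458 in mock cells, changed by -0.06 (limma adjusted p = 0.48), and the authors' half-lives of 685 and 990 min with siRNA and 680 and 786 min in mock cells gave a change of -0.02. Without the second mock column the labelled call was lost (limma adjusted p = 0.134), while the flow-through call held without any single column.

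Heat shock elements were looked for in the promoters of the members, because HSPA8 and HSP90AB1 are among the genes whose labelled RNA rose. A window from 250 bases before to 50 bases after the start of each gene was read from RefSeq (GRCh38.p14) and searched on both strands for 3 inverted units, GAA, TTC and GAA, with any 2 bases between one unit and the next. Read on the other strand the same element is TTC, GAA and TTC. Of 38 members with a promoter in that table, 4 held a match (10.5%): HSPA8, HSP90AB1, DNAJA1 and DNAJB6. Among 4622 tested genes with a promoter 21 did (0.454%), and among all 27305 promoters 166 did (0.608%). The matches upstream of a start are shown so that their units can be compared, 5′ to 3′ on the gene's strand with the 13 matching bases in capitals. They lie at chr11:123062346-123062374 (minus strand) and chr11:123062171-123062199 (minus strand) for HSPA8, with the first base of the element 230 and 55 bases upstream of the start, at chr6:44247770-44247798 (plus strand) and chr6:44247823-44247851 (plus strand) for HSP90AB1, 165 and 112 bases upstream, and at chr7:157336865-157336893 (plus strand) for DNAJB6, 131 bases upstream.
HSPA8 far: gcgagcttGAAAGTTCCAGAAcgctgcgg
HSPA8 near: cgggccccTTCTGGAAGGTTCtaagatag
HSP90AB1 far: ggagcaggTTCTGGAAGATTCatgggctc
HSP90AB1 near: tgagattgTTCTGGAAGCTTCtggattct
DNAJB6: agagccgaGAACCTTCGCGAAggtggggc

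Both upstream matches of HSP90AB1 and the near match of HSPA8 begin with the same 9 bases, TTCTGGAAG. The search itself fixes TTC and GAA, so only the TG between them and the last G were free to agree. The match of DNAJA1 lies just downstream of its start. Labelled RNA rose for 3 of the 4 genes, HSPA8, HSP90AB1 and DNAJA1, and DNAJB6 had labelled signals of 22.4 and 25.2 with siRNA, overlapping 23.8 and 19.2 in mock cells (change 0.01, limma adjusted p = 0.967). The 21 tested genes with a match include these 4. Over the 21, labelled RNA rose for 5, of which 3 are the genes just named, and fell for 1, where 9.88% of all genes rose. The search followed from these rises, and all 3 labelled calls were lost without the second mock column. The inducible HSPA1A, HSPA1B and DNAJB1 were not among the genes with a match. Members without a promoter in the searched set are not named here, and for those no search was made. A match is a description of letters and not a measured binding site.

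**Figure D3:**
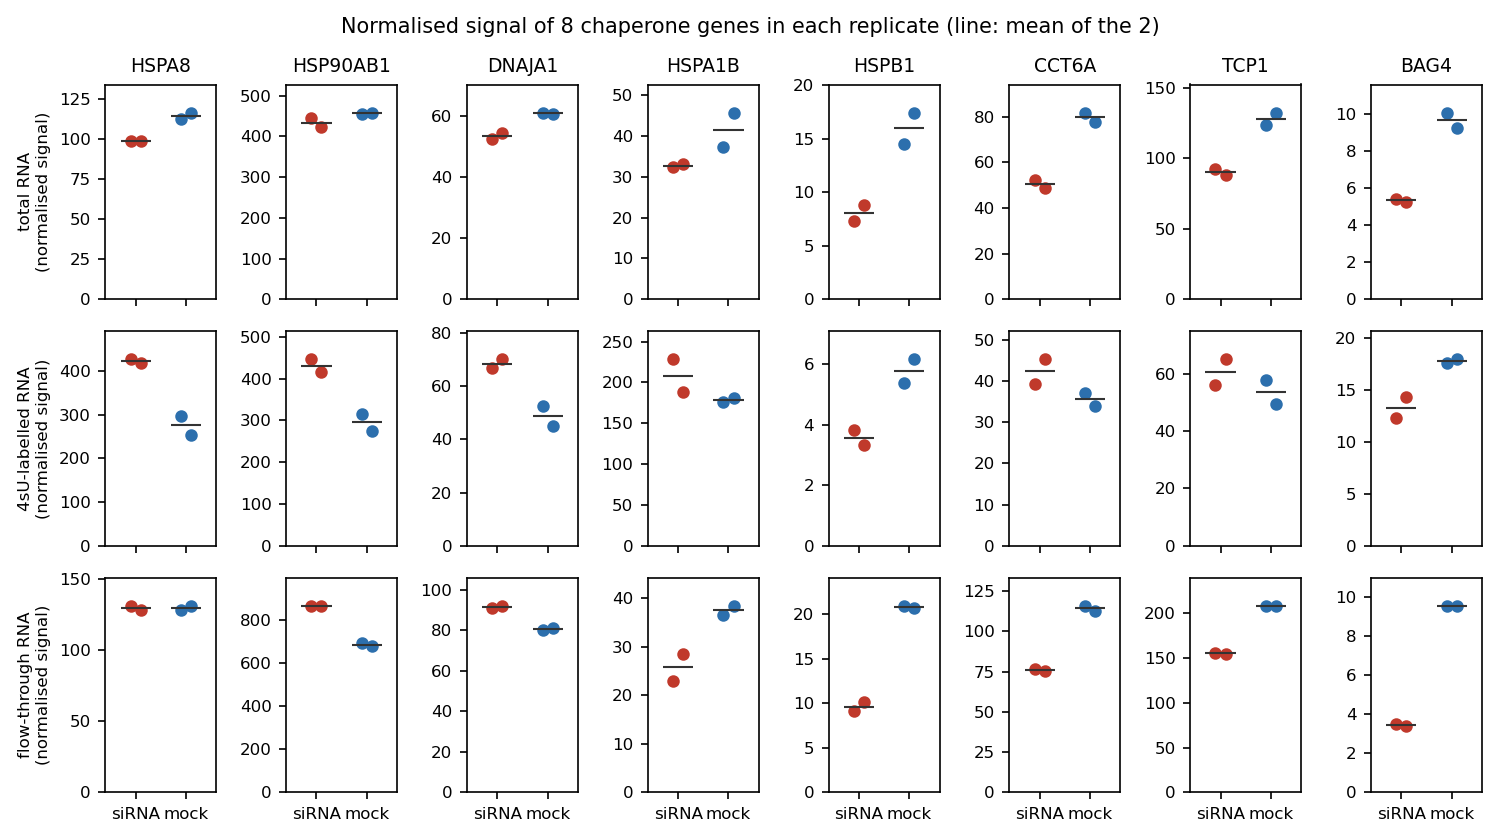
Normalised signal of 8 chaperone genes in total (top), 4sU-labelled (middle) and flow-through RNA (bottom), one point for each of the 2 columns of a condition and a line at their mean, with siRNA at the left and mock at the right of each panel; axes start at 0 and differ between panels. HSPA8, HSP90AB1 and DNAJA1 are higher with siRNA in labelled RNA, and CCT6A, TCP1, HSPB1 and BAG4 are lower with siRNA in total and flow-through RNA.

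Among the 19 tested J-domain proteins no half-life and no fall in total RNA passed the test. Labelled RNA rose for 6, led by DNAJC12, a cochaperone of the aromatic amino acid hydroxylases, and DNAJC2, the ribosome-bound partner of HSPA14. DNAJC12 had labelled signals of 27.9 and 25.5 with siRNA, against 18.6 and 16.3 in mock cells, a change of 0.45 (SE 0.08, limma adjusted p = 0.0042). DNAJC2 had labelled signals of 19.2 and 22.8 with siRNA, against 13.9 and 13.2 in mock cells, a change of 0.45 (SE 0.09, limma adjusted p = 0.00544). The conditions did not overlap in either gene, and both calls held without any single column. Flow-through RNA moved the same way, at 48.8 and 48.0 with siRNA and 33.2 and 29.7 in mock cells for DNAJC12 (change 0.62, limma adjusted p = 0.00055) and at 39.3 and 38.5 with siRNA and 27.0 and 26.1 in mock cells for DNAJC2 (change 0.55, limma adjusted p = 0.000409). Exons of DNAJC2 share 628 bases with PMPCB on the other strand, and the sources used here do not say whether strand was used in counting.

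DNAJA1, a farnesylated partner of HSPA8, had labelled signals of 66.8 and 70.1 with siRNA, against 52.5 and 45.1 in mock cells, a change of 0.35 (SE 0.08, limma adjusted p = 0.0123) that was lost without the second mock column (0.0858). Its flow-through signals of 91.2 and 92.2 with siRNA and 80.0 and 81.4 in mock cells differed by 0.20 (limma adjusted p = 0.00591), and its total signals of 52.4 and 54.3 with siRNA and 61.0 and 60.4 in mock cells by -0.16, short of the threshold (limma adjusted p = 0.0908). Labelled RNA also rose for DNAJC17, a protein of the splicing machinery, for mitochondrial DNAJA3 and for DNAJC3, a cochaperone in the ER lumen, with changes of 0.34, 0.29 and 0.28. All 3 of these calls were lost without the second mock column (limma adjusted p = 0.073, 0.188 and 0.0707), and each also without at least 1 other column. DNAJC17 shares 1151 exon bases with GCHFR on the other strand.

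Mitochondrial DNAJC30 was the 1 J-domain gene whose labelled RNA passed as lower, with signals of 8.11 and 8.47 with siRNA, against 10.0 and 10.1 in mock cells, a change of -0.39 (SE 0.08, limma adjusted p = 0.00879). Exons of DNAJC30 share 359 bases (14.4%) with BUD23 on the other strand. Among the J-domain proteins, the largest half-life change was that of DNAJC24, which acts in the synthesis of diphthamide on a translation factor: 1548 and 1570 min with siRNA, against 838 and 982 min in mock cells by the authors' half-lives. The conditions lay apart, but the change of 0.59 (SE 0.14) did not pass (limma adjusted p = 0.0641). Its total RNA, at 8.78 and 7.44 with siRNA and 6.36 and 5.70 in mock cells, rose by 0.39 (limma adjusted p = 0.0137). DNAJB14, an ER membrane protein, followed in both measures: its half-lives of 779 and 1142 min with siRNA and 633 and 636 min in mock cells changed by 0.38 (limma adjusted p = 0.0712), and its total RNA, at 11.1 and 10.2 with siRNA and 8.53 and 7.54 in mock cells, rose by 0.39 (limma adjusted p = 0.00942). Flow-through RNA of DNAJC24 was 12.0 and 11.1 with siRNA, against 7.98 and 8.45 in mock cells, a rise of 0.46 (limma adjusted p = 0.003).

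DNAJA2, another type A partner of HSPA8, changed by 0.28 in half-life (436 and 579 min with siRNA, 315 and 413 min in mock cells) and rose by 0.23 in total RNA, at 34.4 and 31.6 with siRNA and 28.5 and 28.3 in mock cells (limma adjusted p = 0.0351). The total RNA calls of these 3 genes were lost without the first siRNA column (limma adjusted p = 0.154 for DNAJC24, 0.0652 for DNAJB14 and 0.358 for DNAJA2) and without the second mock column (0.124, 0.0782 and 0.123). That of DNAJA2 was also lost without the second siRNA column (0.098). DNAJB1, the partner of inducible HSP70, had total signals of 15.0 and 14.3 with siRNA and 15.0 and 15.5 in mock cells and labelled signals of 78.0 and 75.1 with siRNA and 73.2 and 67.8 in mock cells. Its changes in the 4 measures lay between -0.10 and -0.02, and none passed. DNAJB6, which holds back aggregation of polyglutamine proteins, had total signals of 44.8 and 40.9 with siRNA and 37.5 and 39.8 in mock cells, a change of 0.16 that missed the threshold (limma adjusted p = 0.0988). DNAJB2, a neuronal J-domain protein, fell by 0.23 in flow-through RNA, at 7.18 and 7.32 with siRNA and 8.80 and 8.70 in mock cells (limma adjusted p = 0.0232), and this call was lost without any one of the 4 columns.

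The BAG proteins, which release the client from HSP70 by exchanging its nucleotide, held 2 of the 3 half-life calls. BAG4, known as a silencer of death receptors, had authors' half-lives of 129 and 149 min with siRNA, against 218 and 224 min in mock cells, a change of -0.87 (SE 0.11, limma adjusted p = 0.0105). Its total signals were 5.41 and 5.24 with siRNA, against 10.1 and 9.23 in mock cells (change -0.73, limma adjusted p = 0.000101), and its labelled signals were 12.3 and 14.3 with siRNA, against 17.6 and 18.0 in mock cells (change -0.54, limma adjusted p = 0.00259). Flow-through signals of 3.48 and 3.39 with siRNA, against 9.51 and 9.54 in mock cells, gave a change of -1.23 (SE 0.07, limma adjusted p = 0.000161). The conditions did not overlap in any measure, and BAG4 had the lowest half-life change and the lowest flow-through change of the 39 genes. Its half-life call was lost without the first mock column (limma adjusted p = 0.0764), its total signal lay close to the floor of 5 in siRNA cells, and it shares 198 exon bases with LSM1 on the other strand.

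BAG3, which joins HSP70 to small heat shock proteins in selective autophagy, had authors' half-lives of 130 and 168 min with siRNA, against 174 and 178 min in mock cells, a change of -0.44 (SE 0.09, limma adjusted p = 0.0439). This call was lost without any one of the 4 columns (limma adjusted p between 0.0895 and 0.237) and in several other settings. In flow-through RNA BAG3 fell by 0.46, with 9.43 and 8.72 in siRNA cells, against 13.5 and 12.6 in mock cells (limma adjusted p = 0.00258). Its total signals of 8.54 and 8.06 with siRNA and 8.81 and 11.0 in mock cells and its labelled signals of 26.4 and 24.5 with siRNA and 23.5 and 21.9 in mock cells did not pass.

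BAG5, which inhibits HSP70 and the ubiquitin ligase parkin, fell in all fractions. Total signals were 9.42 and 9.47 with siRNA, against 13.6 and 13.5 in mock cells (change -0.46, limma adjusted p = 0.00102), and flow-through signals were 8.64 and 8.10 with siRNA, against 14.3 and 14.1 in mock cells (change -0.68, limma adjusted p = 0.00055). Labelled signals of 25.6 and 27.1 with siRNA and 32.1 and 29.2 in mock cells gave a change of -0.35 (limma adjusted p = 0.00999). Its half-lives of 152 and 185 min with siRNA and 185 and 207 min in mock cells changed by -0.42, just short of the threshold (limma adjusted p = 0.0552). BAG1, the founding member, went the other way in labelled RNA, with 23.2 and 21.8 in siRNA cells, against 16.9 and 14.0 in mock cells (change 0.38, limma adjusted p = 0.0104, and 0.0581 without the second mock column). BAG1 total signals, at 23.8 and 21.9 with siRNA and 23.2 and 26.0 in mock cells, overlapped. BAG2, an inhibitor of the ubiquitin ligase CHIP, had total signals of 20.5 and 22.9 with siRNA and 23.0 and 22.1 in mock cells and authors' half-lives of 495 and 559 min with siRNA and 434 and 446 min in mock cells, with no call; 42.7% of its exon bases are shared with RAB23 on the other strand. HSPBP1, an exchange factor unrelated to the BAG family, fell by 0.21 in flow-through RNA, with 63.5 and 68.0 in siRNA cells, against 79.7 and 74.2 in mock cells (limma adjusted p = 0.0141), and lost that call without the first siRNA column (0.0578) or the first mock column (0.0863).

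The 7 bases TACTGCA, which earlier results on these data had linked to shorter half-lives after MOV10 depletion, were looked for in the longest annotated 3′ UTR of each gene (GENCODE v29). They were present in 5 of the 39 genes (12.8%), namely BAG2, BAG4, BAG5, DNAJC5 and DNAJC14, a share near that of all tested genes with a 3′ UTR (751 of 5667, 13.3%). BAG5 was the only one of the 5 with more than 1 copy. Its 3 copies and the single copy of BAG2 are shown with 11 bases on either side, 5′ to 3′ with the 7 bases in capitals, because among the carriers the change of BAG5 in half-life lay near the low end and that of BAG2 was the highest, with neither past the test. BAG5 lies on the minus strand of chromosome 14 and BAG2 on the plus strand of chromosome 6, and the positions of the 7 bases are counted from the first base of the 3′ UTR: 1680 to 1686, 2571 to 2577 and 2644 to 2650 in BAG5, and 826 to 832 in BAG2.
BAG5 copy 1: gcttcccatacTACTGCAggtccaactcc
BAG5 copy 2: ttaatatgagcTACTGCAtgtaattctta
BAG5 copy 3: aaaagaatctgTACTGCAagtaaaaccta
BAG2: cttgttgctatTACTGCAacatatttttg

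The half-life changes of the 5 carriers were -0.87 for BAG4, -0.42 for BAG5, -0.29 for DNAJC5, 0.04 for DNAJC14 and 0.06 for BAG2, with a median of -0.29, beside a median of -0.00 in the tested members without the 7 bases. Over all tested genes the medians were -0.06 with and 0.01 without. Of the 3 members whose half-life fell, BAG4 carried the 7 bases and CCT6A and BAG3 did not, beside 100 of the 251 genes with a 3′ UTR whose half-life fell over all genes tested. Carriers have longer 3′ UTRs, with medians of 3277 against 1436 bases in the members and 3198 against 1446 bases over all genes, and the part of length in these values was not tested.

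Within the TRiC chaperonin, CCT6A and TCP1 fell in total and flow-through RNA, and CCT2, CCT5 and CCT8 fell in neither. CCT6A, the zeta subunit, had authors' half-lives of 709 and 824 min with siRNA, against 1000 and 1104 min in mock cells, a change of -0.65 (SE 0.10, limma adjusted p = 0.0201). Total signals were 52.4 and 48.8 with siRNA, against 81.9 and 77.8 in mock cells (change -0.63, limma adjusted p = 3.16e-05), and flow-through signals were 76.8 and 75.2 with siRNA, against 116 and 113 in mock cells (change -0.57, limma adjusted p = 0.00024). Labelled signals of 39.4 and 45.3 with siRNA and 37.2 and 33.8 in mock cells changed by 0.11 with no call. So the conditions lay apart in half-life, total and flow-through RNA and overlapped in labelled RNA after centring. The half-life call was lost without the first mock column (limma adjusted p = 0.101) or the second (0.0904), while the total and flow-through calls held without any single column.

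TCP1, the alpha subunit, had total signals of 92.2 and 87.9 with siRNA, against 124 and 132 in mock cells (change -0.48, SE 0.06, limma adjusted p = 7.53e-05). Flow-through signals were 156 and 154 with siRNA, against 207 and 208 in mock cells (change -0.40, limma adjusted p = 0.000369). Its half-lives of 997 and 1160 min with siRNA and 1138 and 1378 min in mock cells changed by -0.41 and did not pass (limma adjusted p = 0.0803), and its labelled signals of 55.9 and 65.0 with siRNA overlapped 57.8 and 49.2 in mock cells. Exons of TCP1 share 397 bases with ACAT2 on the other strand.

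The other subunits passed no test in total RNA. CCT2 had total signals of 201 and 199 with siRNA and 208 and 210 in mock cells, CCT5 had 122 and 118 with siRNA and 115 and 121 in mock cells, and CCT8 had 154 and 152 with siRNA and 163 and 162 in mock cells. Their changes lay between -0.07 and 0.04 and none passed. In flow-through RNA CCT2 rose by 0.14 (317 and 318 with siRNA, 295 and 288 in mock cells, limma adjusted p = 0.00772) and CCT5 by 0.19 (206 and 201 with siRNA, 184 and 178 in mock cells, limma adjusted p = 0.00549). The labelled changes of all 5 subunits lay between 0.04 and 0.11 and none passed. The flow-through call of CCT2 was lost after quantile normalisation, and CCT5 shares 1757 exon bases with an antisense gene.

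A ratio of each falling subunit to the geometric mean of CCT2, CCT5 and CCT8 in the same column does not depend on centring. For CCT6A this ratio in total RNA was 0.337 and 0.319 with siRNA, against 0.521 and 0.485 in mock cells, and in flow-through RNA 0.307 and 0.306 with siRNA, against 0.498 and 0.496 in mock cells. In labelled RNA it was 0.532 and 0.578 with siRNA and 0.531 and 0.573 in mock cells. The ratio was thus lower with siRNA in total and flow-through RNA and nearly equal in labelled RNA. For TCP1 the total ratio was 0.592 and 0.575 with siRNA, against 0.786 and 0.826 in mock cells, and the flow-through ratio 0.623 and 0.627 with siRNA, against 0.891 and 0.913 in mock cells. Its labelled ratio was 0.755 and 0.829 with siRNA and overlapped 0.825 and 0.834 in mock cells. The 3 comparison subunits were picked after their values were seen, so these ratios are a description with no test.

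HSPB1, the small heat shock protein HSP27 that holds unfolded proteins until HSP70 takes them, had the largest fall in total RNA of the 39 genes. Total signals were 7.30 and 8.80 with siRNA, against 14.5 and 17.4 in mock cells, a change of -0.89 (SE 0.10, limma adjusted p = 2.67e-05). Labelled signals of 3.82 and 3.32 with siRNA, against 5.39 and 6.17 in mock cells, gave -0.71 (SE 0.11, limma adjusted p = 0.00196), and flow-through signals of 9.10 and 10.1 with siRNA, against 21.0 and 20.7 in mock cells, gave -1.03 (SE 0.06, limma adjusted p = 0.000206). The conditions lay apart in all 3 fractions, and each call held without any single column. Its half-lives, 570 and 903 min with siRNA and 761 and 674 min in mock cells, overlapped.

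**Figure D4:**
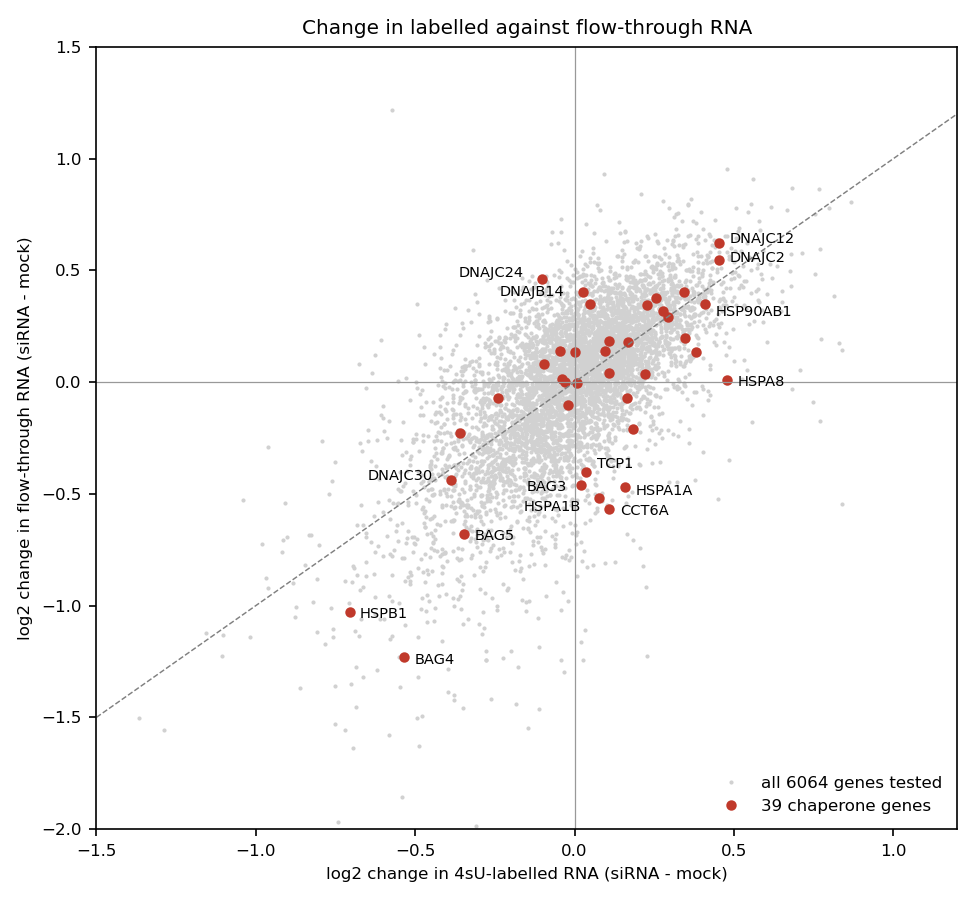
Log2 change, siRNA minus mock, in 4sU-labelled RNA (horizontal) and in flow-through RNA (vertical), relative to the median gene, for the 39 tested chaperone genes in red over all 6064 tested genes in grey; the dashed line marks equal change, and 4 genes lie outside the axes. HSPA8 lies to the right with a flow-through change of 0.01, CCT6A and TCP1 lie below the line near a labelled change of 0, and HSPB1 and BAG4 lie at the lower left.

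Genes that work with the chaperones were taken from lists. Of 28 HSP90 cochaperones 19 were tested, and labelled RNA rose for 5 (26.3%) and fell for none, where 9.88% of all genes rose and 11.5% fell. Among these were AHSA1, the activator of the HSP90 ATPase (change 0.55), RUVBL1, an ATPase of the R2TP complex (0.41), STIP1, the HOP protein that links HSP70 to HSP90 (0.38), and FKBP4, an immunophilin (0.27). AHSA1 had labelled signals of 36.1 and 40.7 with siRNA, against 26.0 and 21.1 in mock cells, and STIP1 had 48.1 and 49.9 with siRNA, against 37.5 and 30.6 in mock cells. Neither pair overlapped. The labelled calls of AHSA1 and RUVBL1 held without any single column, while that of STIP1 was lost without the second mock column (limma adjusted p = 0.0782) and that of FKBP4 without either siRNA column (0.055 and 0.0732) or the second mock column (0.231). In total RNA PTGES3, the p23 cochaperone, rose by 0.29, and ST13, TOMM34 and RUVBL2 fell. No half-life of the list passed.

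Of 13 other genes known as HSF1 targets 10 were tested. Of these, AHSA1, STIP1, FKBP4, PTGES3 and CHORDC1 are also on the list of HSP90 cochaperones, so the lists are not separate. Labelled RNA rose for 5 of the 10, among them AHSA1, STIP1, FKBP4 and the polyubiquitin gene UBB (change 0.34), and fell for none. Over all genes 9.88% rose. The median change over the 10 was 0.25, beside 0.00 over all genes. UBB had labelled signals of 687 and 620.1 with siRNA, against 498 and 439 in mock cells, with no overlap, and its call was lost without the first siRNA column (limma adjusted p = 0.0502) or either mock column (0.128 and 0.305). In total RNA UBB fell by 0.19 (limma adjusted p = 0.0167) and ZFAND2A, a zinc finger protein induced by arsenite, by 0.50 (limma adjusted p = 0.00218), while PTGES3 rose. HSF1 itself and HSF2 had labelled changes of 0.00 and 0.03 with no call, while in flow-through RNA HSF2 rose by 0.26 and HSF1 fell by 0.18. Of the prefoldin and TRiC helpers 8 of 13 were tested, with PFDN5 and PDRG1 higher in labelled RNA and PDCL3 lower in total RNA. Of the mitochondrial and ER partners 13 of 16 were tested, and labelled RNA rose for TRAP1, CLPX, LONP1 and HSP90B1 and fell for DNAJB9. Of these rises, those of PDRG1 and HSP90B1 held without any single column.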

How the data were processed

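Per the labels, 6 GEO samples of HEK293 cells, 1 for each of 3 RNA fractions with MOV10 siRNA or mock transfection, were poly(A)+ TruSeq libraries sequenced for 100 cycles. Per the submitters' processing notes, TopHat2 2.06 placed the reads on hg18. The tool behind the expression values and their unit are not given in the sources used here. In all, the authors deposited 1 table with a normalised signal per gene in 12 columns (replicates 1 and 2 of each sample, per the file headers) and 4 columns of half-lives. The unit of these other, half-life values, deposited by the authors with no unit named, was taken as minutes from their size. Half-lives recomputed in minutes from the 3 fractions, with first-order decay over 60 min, had medians of 466 and 431 (siRNA) and 557 and 625 (mock). The deposited medians were 1.64 and 2.39 times (siRNA) and 1.33 and 1.29 times (mock) these values, so the scale is known only to that extent, and the recomputed medians were lower with siRNA where the deposited ones were higher. Pearson correlations of both over genes on the log2 scale, which do not depend on the unit, were 0.980 and 0.969 (siRNA) and 0.966 and 0.964 (mock). Lengths of genes and depth are not given, so levels were not compared between genes.

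Tests used limma 3.58.1 (R 4.3.3) on log2(signal + 1) or log2 half-life, 2 against 2 columns, each column centred on its median gene, with a mean-variance trend and Benjamini-Hochberg adjustment over the 6064 genes past the floor of 5, at 0.05. A signal of 1.00 is the lowest in the table, and whether genes with lower signals were left out is not stated. Fold changes of low genes are understated. Simulated data were used to test the fit. An exact permutation test of 2 against 2 cannot go below p = 0.333 and was not used. The members, lists and searched sequences were chosen with earlier results of these data known, so their patterns are no independent support. Named with values are a core of chaperones, every half-life call, the 3 largest and 3 smallest changes in each measure, and the 3 shortest-lived and 3 longest-lived members. Alternatives tried were no floor, a floor of 20, no centring, no trend, a pseudocount of 0.1, quantile normalisation, a replicate block, leaving out each column, recomputed half-lives, the flow-through over labelled ratio, and leaving out half-lives outside percentiles 5 to 95. No protein sequences were used. Some listed genes are not reported here.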

Additional observations from a re-analysis of the deposited data

Results flagged for a closer look

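The change in flow-through RNA was set against the change in labelled RNA, gene by gene, with the difference between them tested by limma with Benjamini-Hochberg adjustment over the 6064 genes. The 2 changes differed in 607 genes (10.0%) and in 8 of the 39 chaperone genes. Flow-through minus labelled was -0.71 for BAG4 (adjusted p = 0.00883), -0.69 for CCT6A (0.0053), -0.49 for BAG3 (0.0204), -0.48 for HSPA8 (0.037), -0.45 for TCP1 (0.0382) and -0.40 for HSPBP1 (0.0399). It was 0.55 for DNAJC24 (0.0261) and 0.36 for DNAJB14 (0.0413). Each of these differences had the sign of that gene's half-life change, a measure the authors computed from the same fractions.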

How the results depend on the processing

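No change of a chaperone gene reversed its direction among those that passed. Of 1062 gene results in settings that keep all columns, 1023 stayed on their side of the threshold, 16 lost a call and 23 gained one; with 1 column left out, 566 of 624 stayed. Half-life calls numbered 3, and became 1 with a floor of 20, 0 without centring, 5 with recomputed half-lives (DNAJB14 and DNAJC24 gained), 8 with the flow-through over labelled ratio, and 0 to 3 with 1 column left out. Total RNA calls numbered 10, with 4 at a floor of 20 and 5 to 13 with 1 column left out. Labelled calls numbered 13, with 7 at a floor of 20 and 7 to 14 with 1 column left out. Flow-through calls numbered 26, with 15 at a floor of 20 and 22 to 24 with 1 column left out. A floor of 20 removes the low genes from the test by construction; the cause of the other shifts was not tested. The median half-life change was 0.17 without centring, the median labelled change 0.23, and the median flow-through change 0.13 at a floor of 20. Over all genes, the 114 rises and 259 falls in half-life became 63 and 94 at a floor of 20, 2 and 5 without centring, 208 rises with recomputed half-lives and 233 with the ratio. The 783 rises and 868 falls in total RNA became 353 and 310 at a floor of 20, with 451 rises without centring. The 599 rises and 700 falls in labelled RNA became 252 and 320 at a floor of 20 and 1641 and 333 without centring, and the 1925 and 1626 in flow-through RNA became 923 and 744 at a floor of 20. With 1 column left out, rises in total RNA were as few as 322 and falls 534 (without the first siRNA column), and rises in labelled RNA 379 and falls 447 (without the second mock column). Little pairing of siRNA with mock columns by replicate number was seen. The difference between replicates 1 and 2 in siRNA cells was correlated over genes with that in mock cells. The correlations were -0.07 in half-life, 0.05 in total RNA, -0.04 in labelled RNA and 0.11 in flow-through RNA. Pairing across fractions was not tested. With the number as a replicate block the calls were 2 in half-life, 14 in total RNA, 14 in labelled RNA and 27 in flow-through RNA, and over all genes 21 rises and 118 falls in half-life. Depth is unknown, so no counting error is given.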

Other observations

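Of the 39 tested genes, 32 were on neither the ER list nor the mitochondrial list used here, which need not be complete. The 32 include DNAJC25-GNG10, although DNAJC25 itself is on the ER list. Among these 32, half-life fell for 3 and rose for none, total RNA rose for 2 and fell for 7, labelled RNA rose for 7 and fell for 3, and flow-through RNA rose for 13 and fell for 10. The shares called were 9.38% in half-life, 28.1% in total RNA, 31.25% in labelled RNA and 71.9% in flow-through RNA. Over all genes tested they were 6.15%, 27.2%, 21.4% and 58.6%. The 5 ER genes had 1 rise in total RNA (DNAJB14), 1 in labelled RNA (DNAJC3) and 2 in flow-through RNA, with no fall. These are 20%, 20% and 40% of the 5, beside 27.2%, 21.4% and 58.6% called over all genes.

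The 5 genes under the floor had low total signals. DNAJC13, a J-domain protein of endosomes, had total signals of 4.09 and 3.89 with siRNA and 3.62 and 3.52 in mock cells. HSPA12A, a distant HSP70 relative, had 3.61 and 3.19 with siRNA and 3.86 and 3.81 in mock cells. DNAJB5 had authors' half-lives of 214 and 274 min with siRNA and 177 and 195 min in mock cells, DNAJC22 had 345 and 436 min with siRNA and 506 and 516 min in mock cells, and DNAJC4 had 1429 and 1865 min with siRNA and 1105 and 1048 min in mock cells. These values carry no test.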
